A study of Mus musculus with 6 samples.

Results

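The 42 genes described here are 22 genes of mitosis, 18 genes of S phase, and Stmn1 and Hmgb2, a tubulin-binding and a chromatin protein that are abundant in cycling cells. They were taken by symbol from the 15319 genes listed in an RNA-Seq count table of tumor-infiltrating Tregs, and all 42 were found there with counts. A cell that divides first licenses and fires its replication origins, then copies its DNA with the MCM helicase, the sliding clamp PCNA and a supply of nucleotides, and later builds a spindle, holds at a checkpoint until the chromosomes are attached, and separates them. The mRNAs of each step are made mostly when they are needed, so their summed level in a population is widely used as a readout of cycling, and Mki67, which encodes the Ki-67 antigen, is the usual marker. Tregs, the Foxp3+ CD4+ T cells that restrain immune responses, are known to cycle in tumors.

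The study deleted Xrcc6, which encodes the DNA repair protein Ku70, in Tregs. WT mice were Foxp3Yfp-Cre and cKO mice were Xrcc6flox/floxFoxp3Yfp-Cre, so both groups carried a Cre driven by Foxp3, and deletion was limited to cells in which that Cre was made. Mice of 8 to 10 weeks received 1000000 LLC cells, a mouse Lewis lung carcinoma line, in the tail vein, and Tregs were sorted from the lung-colonizing tumors on day 21. There were 3 WT and 3 cKO libraries. The comparison of cKO with WT asks what loss of Ku70 changed in these cells. No source used here says whether each library came from its own mouse or from pooled mice, so the p-values measure the spread between libraries, which may be technical.

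The promoters of the mitosis and S phase genes differed in their letters, and 6 of them are shown because the levels below were summed over these 2 sets of genes. RefSeq promoters (GRCm38.p6, from 250 bases before to 50 bases after the transcription start) were matched for 34 of the 42 members, 18 mitosis genes, 15 S phase genes and Hmgb2. They were searched on both strands for the CHR (the letters TTTGAA or TTCGAA), for the CCAAT box (CCAAT) and for an E2F core (TTCCCGC or TTCGCGC or TTGCCGC or TTGGCGC). The CHR is the element through which the DREAM and MuvB complexes are known to time mitotic genes, and E2F sites are known from genes of the G1/S transition. The letters TTGGCGC and TTCGCGC overlap on opposite strands in a stretch that holds both, and each was then counted.

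Windows upstream of the start are given 5′ to 3′ on the gene's strand, in lower case with the matches in capitals. They are Mki67 (chr7:135716380-135716529, minus strand), Cdk1 (chr10:69352939-69353062, minus strand, ended where a GENCODE transcript begins), Top2a (chr11:99024190-99024339, minus strand), Mcm6 (chr1:128359706-128359855, minus strand), Mcm5 (chr8:75109359-75109508, plus strand) and Rrm1 (chr7:102441545-102441694, plus strand).
Mki67: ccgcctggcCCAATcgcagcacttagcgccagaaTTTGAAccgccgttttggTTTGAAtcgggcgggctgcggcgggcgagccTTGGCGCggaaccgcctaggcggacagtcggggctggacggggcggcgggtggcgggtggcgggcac
Cdk1: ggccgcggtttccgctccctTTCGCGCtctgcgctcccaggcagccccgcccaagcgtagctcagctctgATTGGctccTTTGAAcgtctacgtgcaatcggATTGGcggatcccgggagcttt
Top2a: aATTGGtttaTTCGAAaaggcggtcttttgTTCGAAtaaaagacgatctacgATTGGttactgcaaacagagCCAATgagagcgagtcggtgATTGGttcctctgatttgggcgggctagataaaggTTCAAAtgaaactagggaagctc
Mcm6: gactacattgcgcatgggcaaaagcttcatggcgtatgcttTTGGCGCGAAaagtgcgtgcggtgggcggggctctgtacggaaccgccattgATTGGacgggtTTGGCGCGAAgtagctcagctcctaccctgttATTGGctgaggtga
Mcm5: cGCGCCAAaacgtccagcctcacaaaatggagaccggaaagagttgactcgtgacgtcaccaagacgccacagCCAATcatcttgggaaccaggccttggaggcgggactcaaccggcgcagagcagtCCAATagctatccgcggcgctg
Rrm1: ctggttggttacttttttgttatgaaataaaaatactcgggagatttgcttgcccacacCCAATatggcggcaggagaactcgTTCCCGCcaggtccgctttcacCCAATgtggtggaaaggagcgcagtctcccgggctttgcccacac
The 3 mitosis windows hold the CHR letters beside CCAAT boxes, and in Top2a the CHR letters occur 3 times. The 3 S phase windows hold E2F letters and CCAAT boxes without the CHR letters. Members given with values below came first, except Pcna, then those with more kinds of match and a higher level. This order and the window length were chosen after the matches were seen. The Pcna promoter held a CCAAT box without E2F or CHR letters and was not printed. The 3 S phase windows therefore do not stand for all S phase promoters.

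Among the mitosis genes with a promoter in the table, 14 of 18 (77.8%) held the CHR letters, against 2 of 15 (13.3%) of the S phase genes, Mcm2 and Mcm7, and 19.4% of the 27025 promoters of all genes. The E2F core letters were in 8 of 15 (53.3%) of the S phase genes, in 3 of 18 (16.7%) of the mitosis genes (Mki67, Ccnb1 and Cdk1) and in 9.69% of all promoters. A CCAAT box was in 16 of 18 (88.9%) of the mitosis genes, 8 of 15 (53.3%) of the S phase genes and 37.9% of all promoters. Both the CHR letters and a CCAAT box were in 14 mitosis genes and 2 S phase genes, against 7.70% of all promoters. A match is a description of the letters and not a mapped binding site.

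**Figure D1:**
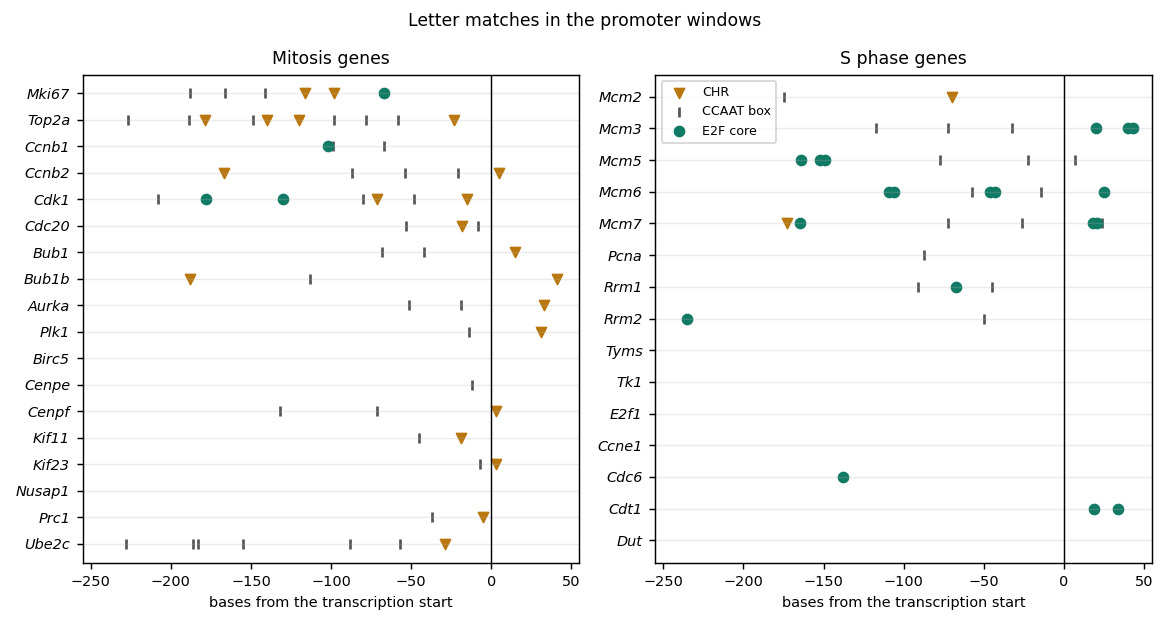
Each row is a gene and each mark is the first base of a match, plotted by its distance in bases from the transcription start (vertical line), for the CHR, the CCAAT box and the E2F core. CHR marks are in 14 of 18 mitosis rows and 2 of 15 S phase rows, and E2F marks in 3 and 8 rows.

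Total counts ranged from 19032620 to 23159815 per library, and 3 counts, the limit that a count of 0 allows, were worth 0.133 to 0.156 CPM, which are counts per 1000000 counts of the scaled library. The targeted gene Xrcc6 was at 20.9, 63.1 and 23.8 CPM in WT replicates 1 to 3 and at 5.24, 3.51 and 4.18 CPM in cKO replicates 1 to 3, lower in every cKO library, as the labels say. Foxp3 was at 241, 150 and 208 CPM in the WT group and at 282, 189 and 242 CPM in the cKO group, so the defining Treg transcript was present in all 6. WT replicate 2 stood apart: it had counts for 11513 genes against 14442 to 14737 in the other 5 libraries, and its highest correlation with another library was 0.930 against 0.991 or more for the others. The counts of members called, their median fold changes and the tested sums are therefore given with and without it.

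Levels of different genes were compared per kb of exon in GENCODE vM21, as means over the other 5 libraries. The length was the union of the exons of all annotated transcripts of a gene. It can exceed the length of the mRNA, so the order depends in part on the annotation. Hmgb2 was the highest member at 112 CPM per kb, followed by Pcna (49.6), Mcm6 (36.9), Stmn1 (26.9) and Mcm4 (24.0). The lowest were Bub1 at 0.712 and Cenpf at 0.402 CPM per kb, both genes of the kinetochore. Every member had at least 48 counts in each of those 5 libraries, and all 42 passed edgeR's filter on low counts. The median SD of log2 CPM over the 5 libraries, with the groups ignored, was 0.201 for the members and ranged from 0.0830 for Tpx2, a spindle assembly factor, to 0.458 for Ube2c, the ubiquitin-conjugating enzyme of the anaphase-promoting complex. All 10769 genes at 2 CPM or more had a median SD of 0.180.

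**Figure D2:**
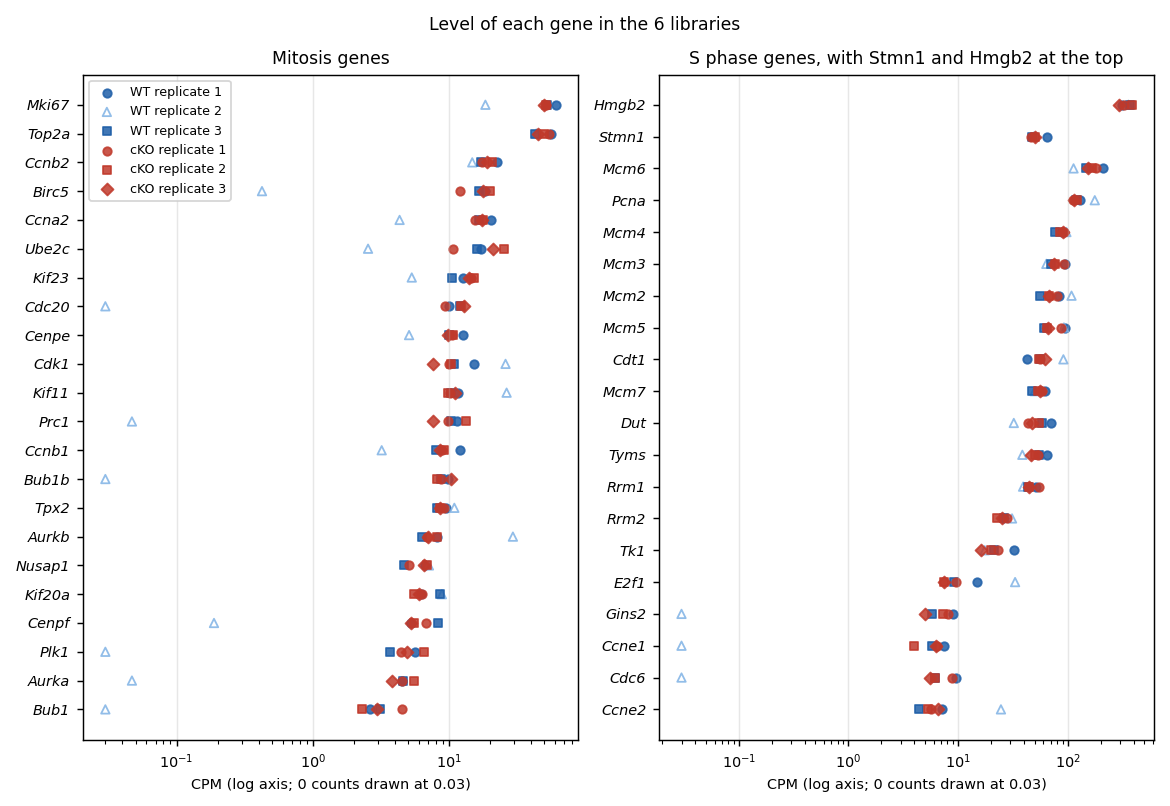
Points give the level of each gene in CPM (log axis) in each library, with WT in blue, cKO in red and WT replicate 2 as open triangles; genes are ordered by their median in the other 5 libraries. The red and dark blue points of a gene lie close together, while open triangles lie far to the left for 11 genes, 7 of them at 0 counts.

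Between the groups, no member passed the test across all genes in either direction. With edgeR, 0 of 42 members passed an adjusted p of 0.05 with all 6 libraries (lowest adjusted p = 0.984) and 0 of 42 passed without WT replicate 2 (lowest adjusted p = 0.998). The background was 0% of the 15315 genes tested with all 6 libraries and 0.00653% without WT replicate 2, which was Xrcc6 alone. With all 6 libraries the deleted gene Xrcc6 itself did not pass, at a log2 fold change of -3.06 (SE 0.48, adjusted p = 0.984 by edgeR). A member that did not pass in that fit may therefore still have changed. At an unadjusted p under 0.05, no member was higher in the cKO group (background 0.94%) and 2 members were lower, Cdk1 and E2f1 (background 0.868%). Without WT replicate 2, no member was higher (background 1.51%) and 2 were lower, E2f1 and Dut (background 1.5%). DESeq2 also passed 0 members at an adjusted p of 0.05, with Cdk1 and E2f1 at an unadjusted p under 0.05, and limma with a weight per library passed 0 at either.

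Over the 42 members, the median difference of cKO from WT was 0.07 on the log2 scale, with 25 above 0 and 17 below, beside a median of 0.04 over all genes tested. Without WT replicate 2 it was -0.06, with 15 above 0 and 27 below, beside -0.01 over all genes. The mitosis genes moved most with that library: their median was 0.25 with all 6 (17 above 0, 5 below) and -0.05 without it (9 above, 13 below). The S phase genes had a median of -0.10 in both fits, with 10 of 18 below 0 with all 6 libraries and 12 of 18 below 0 without WT replicate 2. Intervals narrowed in the same step. The 95% interval of the log2 fold change lay within a 2-fold change either way for 19 of 42 members with all 6 libraries, and for 41 of 42 without WT replicate 2, the exception being E2f1. Over all 15315 genes tested these numbers were 6354 and 9600. That set is not matched for level: 12344 of its genes passed edgeR's filter on low counts, whereas all 42 members did.

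**Figure D3:**
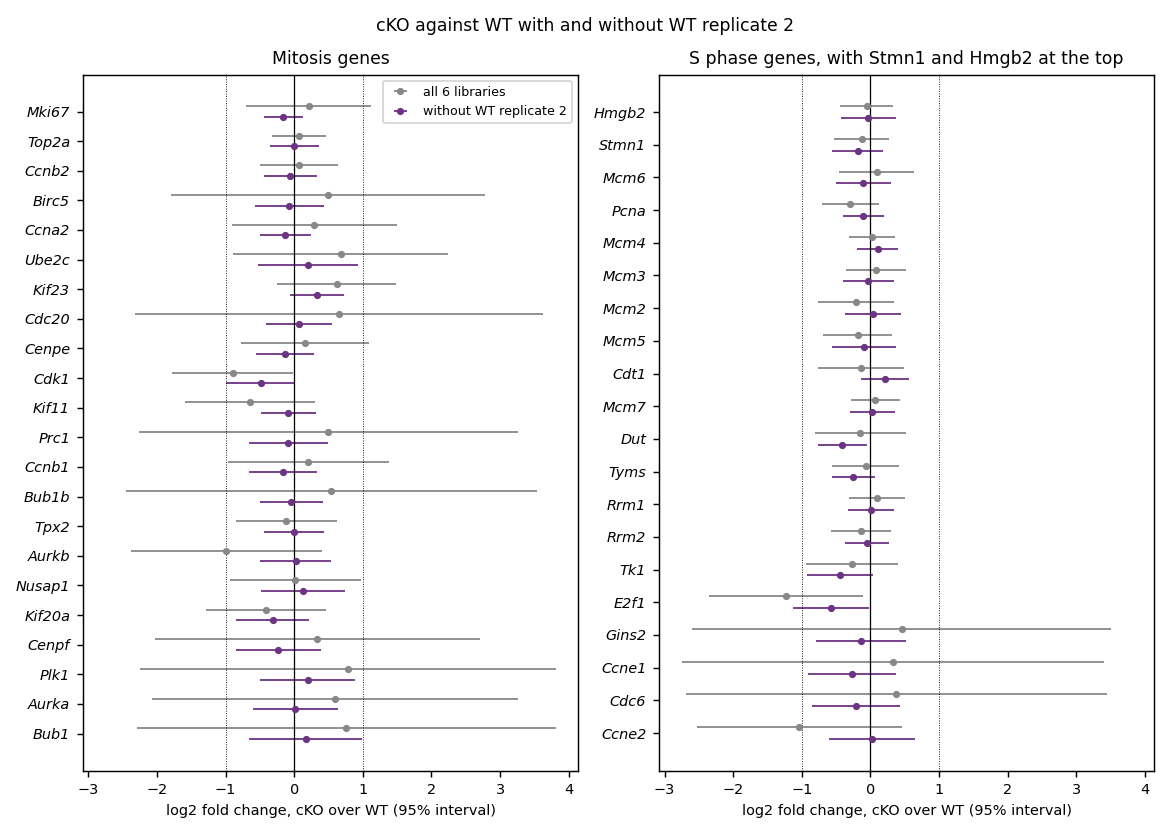
Log2 fold changes of cKO over WT with 95% intervals from edgeR, in grey with all 6 libraries and in purple without WT replicate 2; dotted lines mark a 2-fold change. The purple intervals of 41 of 42 genes stay between the dotted lines, while 19 of 42 grey ones do.

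Of the mitotic chromosome genes, Mki67 was at 60.5, 18.4 and 52.3 CPM in WT replicates 1 to 3 and at 51.2, 51.2 and 49.6 CPM in cKO replicates 1 to 3. The 3 cKO values nearly coincide, and the low WT value sets the direction: the log2 fold change was 0.21 (SE 0.39) with all 6 libraries and -0.16 (SE 0.13, 95% interval -0.45 to 0.13) without WT replicate 2. Top2a, which encodes the topoisomerase that untangles sister chromatids, was at 55.9, 43.6 and 42.8 CPM in the WT group and at 54.0, 49.7 and 45.01 CPM in the cKO group. Its groups overlapped in full, with a log2 fold change of 0.06 (SE 0.17) with all 6 libraries and 0.00 (SE 0.15, 95% interval -0.35 to 0.36) without WT replicate 2.

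Among the kinases and cyclins, Cdk1, the kinase that drives entry into mitosis, was at 15.1, 25.9 and 10.9 CPM in the WT group and at 9.88, 10.4 and 7.61 CPM in the cKO group. The highest cKO value lay below the lowest WT value. Cdk1 (chr10:69335146-69352938, minus strand in GENCODE vM21) had a log2 fold change of -0.90 (SE 0.38, unadjusted p = 0.0472, adjusted p = 0.984 by edgeR) with all 6 libraries and of -0.49 (SE 0.22, unadjusted p = 0.0556, adjusted p = 0.998) without WT replicate 2. Its partner Ccnb2, cyclin B2, was the most abundant of this group in CPM and per kb, at 22.5, 14.8 and 17.1 CPM in the WT group against 17.5, 20.7 and 18.99 CPM in the cKO group. Aurkb, the kinase of the chromosomal passenger complex, was at 8.17, 29.3 and 6.31 CPM against 6.91, 8.12 and 7.03 CPM. Its log2 fold change of -0.99 (SE 0.59) with all 6 libraries was 0.02 (SE 0.23) without WT replicate 2. Without that library the fold changes of the 7 genes of this group, which also holds Ccna2, Ccnb1, Aurka and Plk1, ranged from -0.49 to 0.20.

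The 7 genes of the spindle checkpoint, anaphase promotion and the kinetochore were lower in WT replicate 2 than in every other library, to different degrees. Their summed level was 8.22 CPM there and 62.4 to 84.0 CPM in the other 5 libraries. Bub1, a checkpoint kinase, was at 2.63, 0 and 3.13 CPM in the WT group and at 4.50, 2.31 and 2.94 CPM in the cKO group. Ube2c was at 17.2, 2.54 and 15.9 CPM against 10.6, 25.4 and 21.1 CPM. Cdc20, which activates the anaphase-promoting complex, and the checkpoint kinase Bub1b were also at 0 in WT replicate 2, and Birc5 (survivin) was at 0.423 CPM there against 12.1 to 19.9 CPM elsewhere. Cenpe, a kinetochore motor, kept 5.08 CPM there, most of the sum, at 0.486 times the median of the other 5 libraries. All 7 genes had fold changes above 0 with all 6 libraries (median 0.54), and 4 of 7 were below 0 without WT replicate 2 (median -0.04, range -0.23 to 0.20).

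Spindle motors, microtubule binders and cytokinesis genes summed to 58.6 CPM in WT replicate 2, inside the 52.5 to 59.4 CPM of the other libraries, but single genes did not follow the sum. Kif11, the motor that pushes spindle poles apart, was at 11.5, 26.4 and 10.4 CPM in the WT group and at 10.2, 9.85 and 10.9 CPM in the cKO group. Prc1, which bundles the central spindle, was at 0.0470 CPM in WT replicate 2 and at 7.56 to 13.4 CPM elsewhere. Kif23, the motor of the central spindle, was named after its values were seen, as the member whose cKO libraries were all above the WT libraries. It was at 12.5, 5.31 and 10.5 CPM in the WT group and at 14.3, 15.3 and 13.9 CPM in the cKO group, with a log2 fold change of 0.62 (SE 0.37) with all 6 libraries and 0.33 (SE 0.17, 95% interval -0.06 to 0.72) without WT replicate 2.

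Of all 42 members, Kif23 (higher) and Cdk1 (lower) were the ones whose groups did not overlap in CPM with all 6 libraries, 1 in each direction. The background was 5.01% of genes above and 3.23% below. Without WT replicate 2, Kif23 was again the 1 member above (background 8.48%), and 4 members were below (background 7.53%): Cdk1, Mki67, Dut and Tyms, the thymidylate synthase gene.

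In S phase, the 9 genes of the replicative helicase and origin licensing summed to 695, 615 and 526 CPM in WT replicates 1 to 3 and to 663, 583 and 578 CPM in cKO replicates 1 to 3. The cKO values lay inside the WT range. Mcm6, a helicase subunit, was at 211, 113 and 147 CPM against 182, 168 and 152 CPM, with a log2 fold change of 0.09 (SE 0.23) with all 6 libraries and of -0.10 (SE 0.18) without WT replicate 2. Gins2, a subunit of the complex that activates the helicase, was at 9.03, 0 and 5.79 CPM against 8.07, 7.25 and 4.98 CPM. Cdc6, which loads the helicase, was also at 0 in WT replicate 2, at 5.51 to 9.56 CPM elsewhere, whereas Cdt1, its partner in loading, was at 91.2 CPM there against 42.8 to 61.9 CPM. Without WT replicate 2 the 9 fold changes ranged from -0.21 for Cdc6 to 0.22 for Cdt1.

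None of the 6 sliding clamp and nucleotide supply genes passed an adjusted p of 0.05 by edgeR in either fit. Their sum, which was not tested, was 374, 335 and 322 CPM in the WT group and 313, 314 and 293 CPM in the cKO group. The highest cKO sum lay below the lowest WT sum. Fold changes were below 0 in both fits for 5 of the 6 genes, with Rrm1, the large subunit of ribonucleotide reductase, above it. Of all 15315 genes tested, 6972 were below 0 with all 6 libraries and 7864 without WT replicate 2. Pcna was at 129, 176 and 119 CPM against 111, 122 and 114 CPM, a log2 fold change of -0.29 (SE 0.18, unadjusted p = 0.141 and adjusted p = 0.984 by edgeR) with all 6 libraries and of -0.10 (SE 0.13) without WT replicate 2. Dut encodes the dUTPase that keeps uracil out of DNA. It was at 70.7, 32.2 and 57.9 CPM in the WT group and at 43.5, 54.6 and 47.3 CPM in the cKO group, so that WT replicate 2 was the lowest and WT replicates 1 and 3 the highest of the 6. The log2 fold change of Dut was -0.14 (SE 0.28) with all 6 libraries and -0.41 (SE 0.16, unadjusted p = 0.0289, adjusted p = 0.998 by edgeR) without WT replicate 2. Without that library the 6 fold changes ranged from -0.45 (SE 0.21) for Tk1 to 0.01 for Rrm1.

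E2f1, the transcription factor that turns on S phase genes, had the largest fold change of the 42 members in both fits. It was at 14.8, 33.1 and 9.22 CPM in the WT group and at 9.56, 7.40 and 7.38 CPM in the cKO group, and WT replicate 3 fell inside the cKO range. The log2 fold change of E2f1 (chr2:154559407-154569892, minus strand) was -1.23 (SE 0.48, unadjusted p = 0.0355, adjusted p = 0.984 by edgeR) with all 6 libraries and -0.57 (SE 0.24, 95% interval -1.12 to -0.02, unadjusted p = 0.0452, adjusted p = 0.998) without WT replicate 2. The 2 E cyclins, which start S phase with CDK2, split in WT replicate 2: Ccne1 was at 0 there and at 3.94 to 7.50 CPM elsewhere, and Ccne2 was at 24.6 CPM there and at 4.43 to 7.07 CPM elsewhere. Their log2 fold changes without that library were -0.26 (SE 0.28) and 0.02 (SE 0.28).

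Stmn1, stathmin, was at 64.9, 49.1 and 46.7 CPM in the WT group and at 46.0, 50.8 and 50.3 CPM in the cKO group. Hmgb2 was at 313, 358 and 368 CPM against 323, 384 and 293 CPM. The groups overlapped for both genes, and WT replicate 2 lay within the range of the other libraries for both.

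Summed over the 22 mitosis genes, the level was 338, 206 and 289 CPM in WT replicates 1 to 3 and 290, 323 and 297 CPM in cKO replicates 1 to 3. WT replicate 2 was the lowest of the 6, and the other WT libraries held both the highest value and the next lowest. The log2 ratio of cKO over WT was 0.15 (exact permutation p = 0.7, two-sided) with all 6 libraries and -0.05 (exact permutation p = 0.7) without WT replicate 2. The 18 S phase genes summed to 1099, 1008 and 867 CPM in the WT group and to 998, 913 and 892 CPM in the cKO group, with a log2 ratio of -0.08 (exact permutation p = 0.6) and of -0.06 (exact permutation p = 0.7) without WT replicate 2. In this sum WT replicate 2 did not stand apart, and the WT group spanned all of the cKO values. The ratio of mitosis to S phase sums was 0.308, 0.205 and 0.334 in the WT group and 0.291, 0.353 and 0.333 in the cKO group (exact permutation p = 0.5 with all 6 libraries and 0.9 without WT replicate 2). Neither 3 libraries against 3 nor 3 against 2 can give a p under 0.1. In a bulk sample, fewer cycling cells and less of these mRNAs per cycling cell cannot be told apart.

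**Figure D4:**
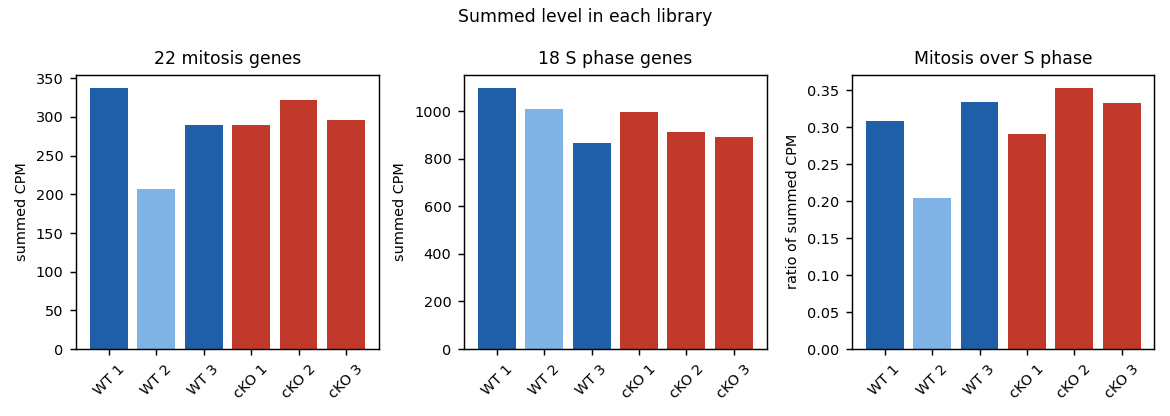
Bars give, for each library, the summed CPM of the 22 mitosis genes, the summed CPM of the 18 S phase genes and the ratio of both sums, with WT in blue (WT replicate 2 in pale blue) and cKO in red. The pale bar is the lowest for the mitosis sum (206 CPM) and for the ratio (0.205), and the second highest for the S phase sum (1008 CPM).

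Macrophage and dendritic cell markers were lowest in the first replicate of each group. The 6 markers (Lyz2, Csf1r, Itgam, Adgre1, Cd68 and C1qa) summed to 162 CPM in WT replicate 1 and 209 CPM in cKO replicate 1. They summed to 460 to 879 CPM in the other 4 libraries, with no marker at 0 in any library. The S phase sums of WT replicate 1 and cKO replicate 1 were 1099 and 998 CPM. Between them lay WT replicate 2 at 1008 CPM, although its marker sum was 640 CPM. WT replicate 3 and cKO replicates 2 and 3 had S phase sums of 867, 913 and 892 CPM. The mitosis sum was highest in WT replicate 1 (338 CPM), but cKO replicate 1 (290 CPM) was the lowest of the cKO group. WT replicate 1 was the highest of the 5 libraries without WT replicate 2 for 25 of 42 members and for 14 of 18 S phase genes. The 6 Treg markers summed to 3596 to 4401 CPM, with WT replicate 1 the highest and WT replicate 2 the lowest. The part of these cells in the S phase levels was not tested. Other markers were low: CD8 T and NK cell genes summed to 8.27 to 24.4 CPM, B cell genes to 12.0 to 48.3 CPM, neutrophil genes to 2.44 to 13.5 CPM, red blood cell genes to 0 to 36.1 CPM, epithelial and carcinoma genes to 11.4 to 32.1 CPM, and stromal and endothelial genes to 61.5 to 96.4 CPM, with Pecam1 alone at 60.3 to 92.9 CPM. The neutrophil marker Ly6g was at 0 in 3 libraries and at 0.133 CPM or less in the others, and Cd8a was at 0.673 to 2.60 CPM outside WT replicate 2, where it was at 0. Of the 5 neutrophil markers, 1, 3 and 2 were at 0 counts in WT replicates 1 to 3, and 1, 0 and 0 in cKO replicates 1 to 3. Their fold changes are therefore taken against values near 0. With all 6 libraries, 2 of 5 neutrophil markers (Retnlg and S100a9) and 1 of 5 B cell markers (Pax5) were higher in cKO libraries at an unadjusted p under 0.05. The background was 0.94% of all genes tested. In each of these 2 lists, 4 fold changes were above 0 and 1 was below. Of the 6 macrophage and dendritic cell markers, 5 had log2 fold changes above 0 and 1 below with all 6 libraries (median 0.85). Without WT replicate 2 all 6 were above 0 (median 0.95). None of these 6 was at an unadjusted p under 0.05 by edgeR in either fit. No marker of any list passed an adjusted p of 0.05 by edgeR. With WT replicate 2 left out, the same 2 neutrophil markers and 2 red blood cell markers (Hba-a2 and Hbb-bs) were higher at an unadjusted p under 0.05 (background 1.51%), and no B cell marker was.

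The members that departed most in WT replicate 2 were those of low level. Its value lay outside the range of the other 5 libraries for 36 of 42 members, below for 23 and above for 13. More than 2-fold away from the median of the other 5 were 22 of 42 members, whereas no other library had a member more than 2-fold away from the rest. Of the 25 members at 2 to 20 CPM, 21 (84.0%) were outside 2-fold and 7 (28.0%) were at 0: Cdc20, Bub1, Bub1b, Plk1, Ccne1, Cdc6 and Gins2. Among all 3982 genes in that range the shares were 50.9% and 14.5%. Of the 17 members at 20 CPM or more, 1 was outside 2-fold, Mki67 at 0.360 times the median, against 16.3% of all genes at that level. Loss was not the only direction, since Ccne2 (4.34 times the median), Aurkb (4.17), E2f1 (3.59), Kif11 (2.54) and Cdk1 (2.50) were all raised there. Both Cdk1 and E2f1, the members at an unadjusted p under 0.05 with all 6 libraries, were thus at their highest in the library that stood apart.

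**Figure D5:**
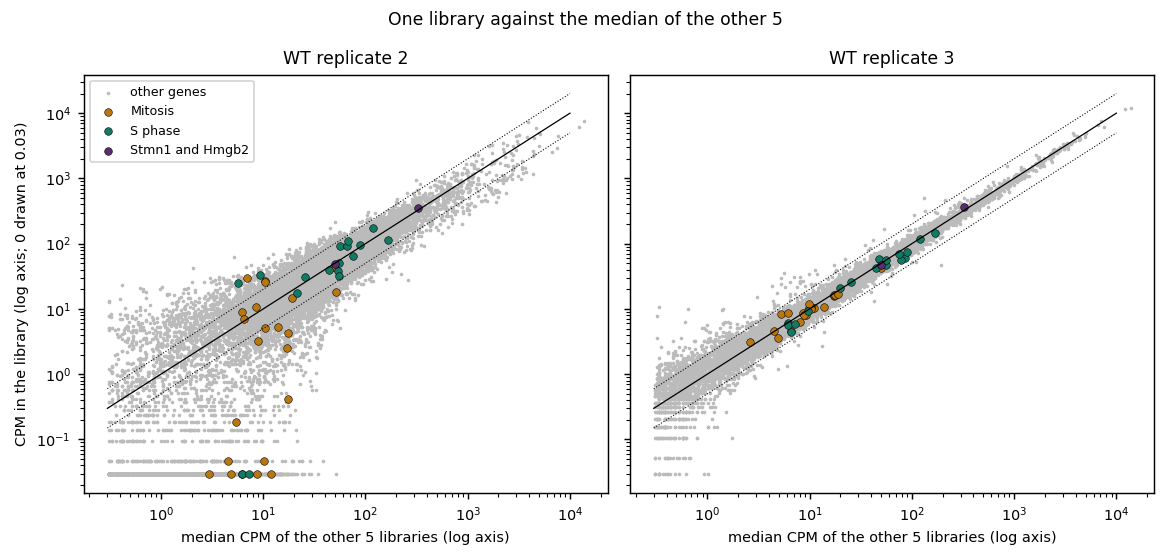
Each point is a gene, with the median CPM of the other 5 libraries on the x axis and the CPM in WT replicate 2 (left) or WT replicate 3 (right) on the y axis, both logarithmic; dotted lines mark 2-fold. In WT replicate 2, 22 of 42 members are outside the dotted lines and 7 are at 0 counts, and in WT replicate 3 none is outside.

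Other genes of mitosis and S phase were read from lists. Of 70 other mitosis genes, 69 had counts, among them Smc4 of condensin at 200 to 484 CPM and the checkpoint gene Bub3 at 77.8 to 124 CPM. None passed an adjusted or an unadjusted p of 0.05 with all 6 libraries, the median log2 fold change was 0.08 (-0.06 without WT replicate 2), and 17 were at 0 in WT replicate 2. Unlike the 22 mitosis members, the 69 genes had their highest sum in that library. They summed to 1195 to 1339 CPM elsewhere and to 1473 CPM in WT replicate 2. Without that library 2 were higher in cKO libraries at an unadjusted p under 0.05 (background 1.51%), Gtse1 and the phosphatase gene Cdc25b. Both were named after their values were seen. Of 53 other S phase genes, among them the single-strand binding gene Rpa1 at 75.3 to 99.7 CPM and the histone mRNA binder Slbp at 62.4 to 81.3 CPM, none passed an adjusted p of 0.05 and 2 were lower at an unadjusted p under 0.05 (background 0.868%). Pole, the catalytic subunit of the leading-strand polymerase, was at 4.59, 15.1 and 5.73 CPM in the WT group and at 2.78, 2.83 and 3.42 CPM in the cKO group. On the log2 scale Pole differed by -1.49 (SE 0.57, unadjusted p = 0.0335, adjusted p = 0.984 by edgeR) with all 6 libraries and -0.77 (unadjusted p = 0.0226, adjusted p = 0.998) without WT replicate 2. Mcm10, which helps activate the helicase, was at 3.97, 24.4 and 3.49 CPM against 3.43, 2.31 and 2.54 CPM, so that WT replicate 2 alone was far above the rest. The groups did not overlap for 1 higher and 7 lower of the 53 other S phase genes and for 3 higher and 1 lower of the 69 other mitosis genes (background 5.01% higher and 3.23% lower). With WT replicate 2 left out, these were 1 higher and 9 lower of the S phase genes, and 7 higher and 8 lower of the mitosis genes (background 8.48% and 7.53%).

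Upstream of S phase, none of 14 G1 cyclins, kinases and inhibitors and none of 15 RB, E2F and DREAM regulators passed an adjusted or an unadjusted p of 0.05 with all 6 libraries. Ccnd2, cyclin D2, had the highest CPM of the first list, at 479, 462 and 395 CPM in the WT group and at 469, 381 and 357 CPM in the cKO group, followed by Ccnd3 at 156 to 224 CPM. The median log2 fold change was 0.07 for the G1 list and -0.06 for the RB list (-0.01 and 0.03 without WT replicate 2). Without WT replicate 2, 1 of the 14 genes of the G1 list was higher in cKO libraries at an unadjusted p under 0.05 (background 1.51%). This was the CDK inhibitor gene Cdkn1c, named after its values were seen. It was at 1.43 to 2.61 CPM in the 3 WT libraries and at 3.41 to 5.43 CPM in the 3 cKO libraries. Rbbp4, a histone-binding subunit of the MuvB complex, was at 199 to 255 CPM, and Rbl2, the pocket protein of DREAM, at 99.8 to 140 CPM, in a range that both groups shared.

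The deposited counts divide reads shared between genes, and 14 of the 42 members had at least 1 value that was not whole, among them E2f1 and Ube2c. For 15 members, among them Mki67 and Top2a, another gene overlaps on the opposite strand, and no source used here says whether the counting used strand. Cdk1, Dut and Pcna had whole values in all 6 libraries and no overlapping gene.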

How the data were processed

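Per the labels and the study's methods, total RNA of tumor-infiltrating Tregs was made into libraries and read as paired ends on a BGI-Seq500. The submitters' processing notes name Bowtie2 (version 2.3.4.3), RSEM (version 1.3.1) and GRCm38. The authors deposited estimated counts per gene symbol for all 6 libraries, without normalization; their annotation and strand setting are not given in the sources used here. Of the deposited values 21.6% were not whole, and values were rounded before testing. RSEM divides reads shared between similar genes, so such genes are less certain.

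Samples were grouped by genotype in the labels. Counts were scaled with edgeR's TMM method (edgeR version 4.0.16 in R version 4.3.3) to CPM, and cKO was compared with WT by the quasi-likelihood test of edgeR. P-values were adjusted by the Benjamini-Hochberg method across the 15315 genes that had any count. Standard errors and 95% intervals come from that fit. Sums of CPM were compared by two-sided exact permutation tests of log2 values. The alternatives were each library left out in turn, library size as the only scaling, size factors by median of ratios, DESeq2 (version 1.42.0), filterByExpr (minimum count 10), the replicate number as a block and limma's voomWithQualityWeights (version 3.58.1). A DESeq2 fit that leaves out WT replicate 2 was chosen later, after seeing the data. The script was tested on simulated data.

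The members and all lists were chosen with earlier results of these data known. The other lists were other mitosis genes, other S phase genes, G1 cyclins, kinases and inhibitors, RB, E2F and DREAM regulators, and markers of Tregs, CD8 T and NK cells, macrophages and dendritic cells, neutrophils, B cells, red blood cells, epithelium and carcinoma, and stroma and endothelium. Values in every library were given for Mki67, Top2a, Pcna, for the most abundant member and the one of largest fold change in each role group, and for members at an unadjusted p under 0.05 in either fit; the other lists gave their 2 most abundant genes and those at an unadjusted p under 0.05, except among the markers. Cdc20, Bub1b, Birc5, Prc1, Kif23, Cdc6, Cdt1, Tk1, Ccne1 and Ccne2 were named after their values were seen.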

Additional observations from a re-analysis of the deposited data

How the results depend on the processing

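No member passed an adjusted p of 0.05 in any of the 14 fits run. Over all genes, the number at an adjusted p under 0.05 was 0 with edgeR and all 6 libraries, 0 to 1 when each library was left out in turn, 2 with DESeq2 and 3 with DESeq2 without WT replicate 2. At an unadjusted p under 0.05, 144 genes were higher and 133 lower with edgeR. Those numbers were 45 to 287 higher and 20 to 601 lower when each library was left out in turn, 95 and 212 with DESeq2, and 262 and 281 with voomWithQualityWeights, and 39 were higher under filterByExpr. Cdk1 was at an unadjusted p under 0.05 in 6 fits and E2f1 in 8, and neither was when any 1 cKO library was left out, where their log2 fold changes stayed at -0.98 to -0.77 for Cdk1 and -1.36 to -1.17 for E2f1.

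Log2 fold changes of named members that changed sign were small in at least 1 fit. When each library was left out in turn, they ranged from -0.16 to 0.52 for Mki67, -0.00197 to 0.20 for Top2a, -0.0543 to 0.26 for Ccnb2, -1.34 to 0.0214 for Aurkb, -0.10 to 0.36 for Mcm6, -0.13 to 1.23 for Gins2, -0.41 to 0.11 for Dut, -0.21 to 0.0336 for Stmn1 and -0.17 to 0.0312 for Hmgb2. With voomWithQualityWeights Mki67 was at -0.0688 and Mcm6 at -0.0188. With DESeq2 without WT replicate 2, Mki67 was at -0.16, Ccnb2 at -0.0568, Aurkb at 0.0184, Mcm6 at -0.10 and Gins2 at -0.14. The log2 ratio of the mitosis sums was -0.0469 to 0.31 when each library was left out, negative without WT replicate 2, and -0.0171 for the other mitosis genes in place of the members. The S phase value was 0.0585 as the mean of log2(CPM + 0.5), which weights members equally, a setting that gave 0.50 for mitosis and 0.44 for the ratio, against 0.15 and 0.23 as sums. With Stmn1 and Hmgb2 added to the mitosis sum those were 0.0159 and 0.0962. With library size as the only scaling, the mitosis value was 0.0908 and the S phase value -0.14. The causes of the changes of sign were not tested. For the named members, 162 of the values under alternatives kept both their direction and their side of an unadjusted p of 0.05. Of the rest, 17 changed direction, 14 rose above that p and 2 fell below it.

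The replicate numbers were not taken to pair the libraries: deviations of same-numbered libraries correlated at 0.114, -0.0941 and 0.211 for replicates 1, 2 and 3. With the replicate block, 0 genes passed an adjusted p of 0.05, 39 were higher and 46 lower at an unadjusted p under 0.05, and no member was among them. Not every library correlated best with its own number. In WT replicate 2, with 19376740 counts, 3 counts were worth 0.141 CPM and 7 members were at 0. In WT replicate 3, with 19032620 counts, no member was at 0. The cause of this difference was not tested.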
